A study of Mus musculus with 20 samples.

Results

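Fibroblast growth factors (FGFs) are secreted proteins that bind tyrosine kinase receptors at the cell surface, and the 10 genes described here are the ligands Fgf1, Fgf2, Fgf7, Fgf9, Fgf10 and Fgf18 and the receptors Fgfr1, Fgfr2, Fgfr3 and Fgfr4. They were taken by gene symbol from the 45777 genes of a table of mouse uterine expression, and all 10 were above 0 in each of the 20 libraries and so were among the 18706 genes that could be tested. The uteri came from wild-type (WT) B6D2F1 females, 8 to 12 weeks old, that had mated and were collected at 18:00 on day 3.5, counting the morning of the vaginal plug as day 0.5. The control group was pregnant and received no drug. The 3 other groups shared 1 treatment, RU486 (mifepristone, an antagonist of the progesterone and glucocorticoid receptors), injected under the skin on the morning of day 3.5. The implantation failure (IF) group received RU486 alone. The PBMC and PBMC-hCG groups had in addition received peripheral blood mononuclear cells into the uterus on day 1.5, cultured without or with human chorionic gonadotropin (hCG). Each group held 5 libraries. The cells came from other, non-pregnant mice, and no library of a medium-only injection was analysed here, so an effect of the cells and one of the injection cannot be told apart.

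A ligand needs heparan sulfate, a sugar chain on surface proteoglycans, to hold the receptor in a pair; the activated receptor then recruits the adaptor FRS2 and switches on the RAS-ERK kinase cascade, which induces its own inhibitors of the Sprouty and DUSP families. FGFR2 exists as an epithelial splice form, which answers the mesenchymal ligands FGF7 and FGF10, and a mesenchymal one, and a table of gene totals does not separate them. In the uterus before implantation, progesterone acting through its receptor (Pgr) induces the transcription factor HAND2 in the stroma. HAND2 is known to hold down stromal FGF ligands, which otherwise drive epithelial proliferation.

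Levels are given as TPM, a transcript abundance scaled to gene length and to the library total, so that levels of different genes can be set side by side. The read depth behind them is unknown, since TPM keeps none. The uterine genes Hoxa10, Hoxa11, Pgr, Esr1, Msx1 and Wnt7a summed to between 541.7 and 736.1 TPM in every library, so the label of the tissue held. Of the embryo markers Pou5f1, Nanog, Cdx2 and Sox2 the sum did not exceed 0.386 TPM in any library. RNA came from whole tissue, in which fewer cells of a type and less RNA per cell cannot be told apart.

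In the control uterus the receptors Fgfr2 (44.0 ± 3.09 TPM, SD, n = 5) and Fgfr1 (38.6 ± 4.92 TPM) stood far above the other 8 genes. The ranges of these 2 receptors overlapped, and no value of the other 8 genes reached their range in any library. Among the ligands the order by control mean was Fgf2 (6.21 ± 1.46 TPM), Fgf10 (4.87 ± 2.23), Fgf7 (4.02 ± 0.300), Fgf1 (3.82 ± 0.248), Fgf9 (2.97 ± 1.31) and Fgf18 (0.744 ± 0.130). Neighbours in this order had overlapping ranges except Fgf9 and Fgf18, and the receptors Fgfr3 (3.33 ± 0.564 TPM) and Fgfr4 (1.16 ± 0.401 TPM) fell among the ligands. A further 12 ligand genes (Fgf3, Fgf4, Fgf5, Fgf6, Fgf8, Fgf15, Fgf16, Fgf17, Fgf20, Fgf21, Fgf22 and Fgf23) were each listed at 0 in at least 1 library and reached at most 0.545 TPM, and none of them could be tested. The 6 ligands described here were thus the only ones of the 18 listed that were above 0 in every library.

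**Figure D1:**
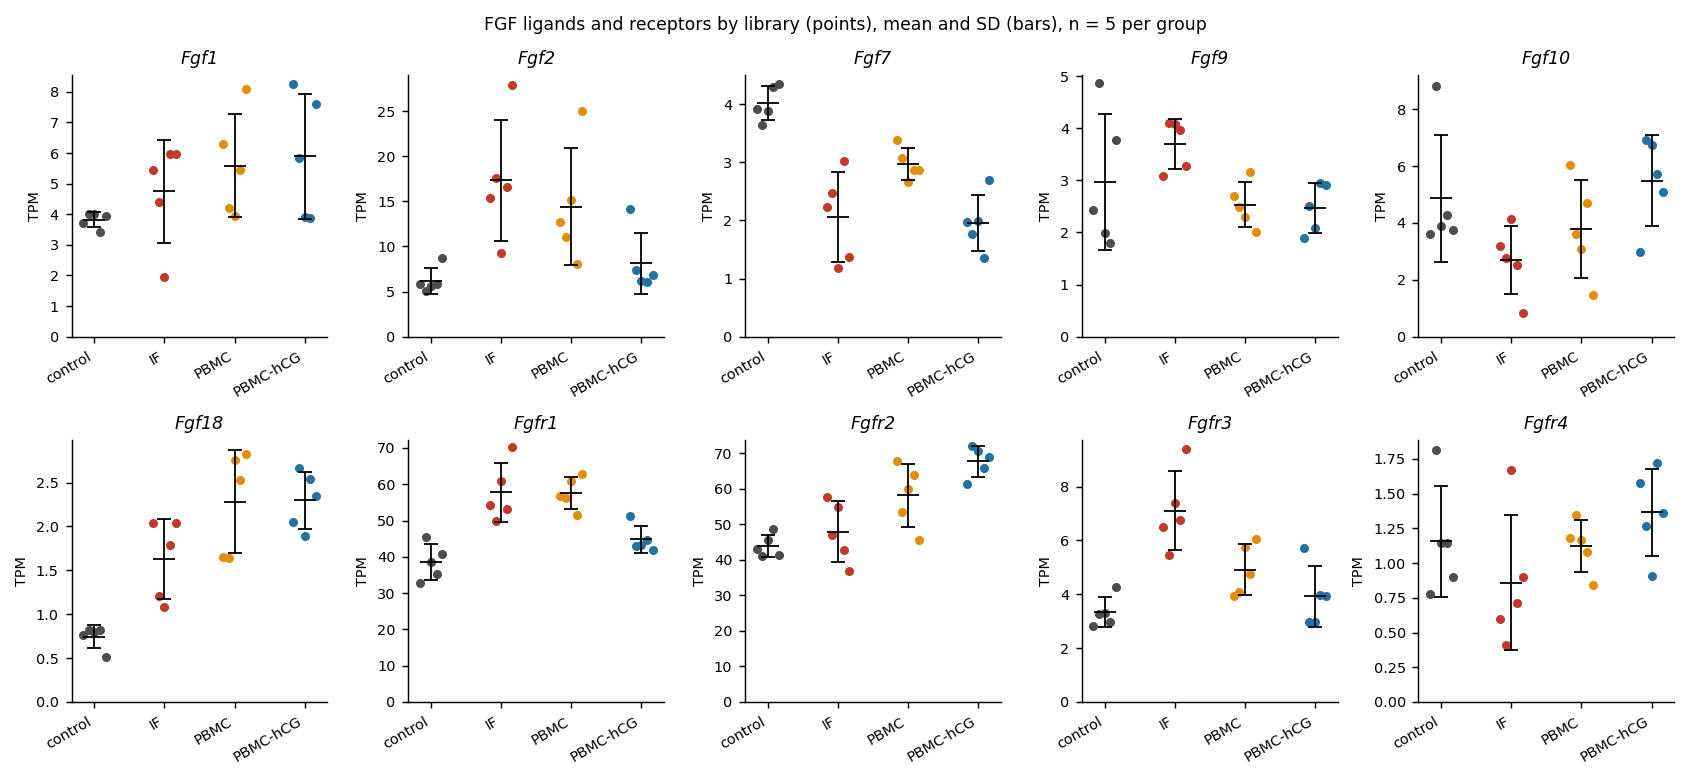
TPM (y axes, from 0) of each of the 10 genes in the 4 groups (x axes); points are libraries, the horizontal bar is the mean and the whisker its SD over 5 libraries. Fgf2, Fgf18, Fgfr1 and Fgfr3 of the IF group lie above all control libraries and Fgf7 below all of them.

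RefSeq promoter windows of 300 bases (GRCm38.p6, the build mm10 of the deposited files; 250 bases before and 50 after a start site) were held for 8 of the 10 genes. They are shown for the genes called in at least 1 comparison, where a window was held, and for Fgf10, which binds the same receptor form as Fgf7. Capitals mark every E-box, the CANNTG hexamer that basic helix-loop-helix factors such as HAND2 recognise, and every GC box, GGGCGG, searched on both strands.
Fgf2 (chr3:37348403-37348702, plus strand): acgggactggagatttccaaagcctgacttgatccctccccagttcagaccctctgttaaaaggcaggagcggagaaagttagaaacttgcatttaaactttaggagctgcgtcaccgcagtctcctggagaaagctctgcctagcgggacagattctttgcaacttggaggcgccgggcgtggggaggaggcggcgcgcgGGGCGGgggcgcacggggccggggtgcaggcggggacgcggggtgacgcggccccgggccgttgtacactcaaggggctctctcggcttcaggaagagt
Fgf18 (chr11:33147351-33147650, minus strand): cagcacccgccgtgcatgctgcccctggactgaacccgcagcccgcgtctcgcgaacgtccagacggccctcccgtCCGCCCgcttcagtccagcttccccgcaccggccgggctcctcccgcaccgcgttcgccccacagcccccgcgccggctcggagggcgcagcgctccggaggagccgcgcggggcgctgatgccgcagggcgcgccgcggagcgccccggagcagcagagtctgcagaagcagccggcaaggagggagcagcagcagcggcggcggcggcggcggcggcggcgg
Fgf7 (chr2:126034408-126034707, plus strand): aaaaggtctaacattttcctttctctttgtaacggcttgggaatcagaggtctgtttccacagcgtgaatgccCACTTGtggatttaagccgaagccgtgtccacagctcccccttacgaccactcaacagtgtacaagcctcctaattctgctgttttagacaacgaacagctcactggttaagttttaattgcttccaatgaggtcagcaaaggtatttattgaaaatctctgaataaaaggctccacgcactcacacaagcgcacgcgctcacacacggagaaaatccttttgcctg
Fgf10 (chr13:118714449-118714748, plus strand): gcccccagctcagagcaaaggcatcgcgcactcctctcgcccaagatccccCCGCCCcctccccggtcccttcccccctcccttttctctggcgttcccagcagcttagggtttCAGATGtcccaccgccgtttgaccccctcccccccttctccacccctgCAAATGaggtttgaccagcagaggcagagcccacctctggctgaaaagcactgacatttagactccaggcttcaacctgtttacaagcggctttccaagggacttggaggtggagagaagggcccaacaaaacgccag
Fgfr3 (chr5:33721474-33721773, plus strand): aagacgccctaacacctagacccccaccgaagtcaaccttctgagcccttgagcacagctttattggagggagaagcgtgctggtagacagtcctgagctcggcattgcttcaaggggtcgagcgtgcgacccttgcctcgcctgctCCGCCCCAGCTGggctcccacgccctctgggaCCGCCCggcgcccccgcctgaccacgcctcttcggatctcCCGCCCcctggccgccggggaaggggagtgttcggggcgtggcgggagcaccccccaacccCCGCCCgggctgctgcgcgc
Fgfr2 (chr7:130266759-130267058, minus strand): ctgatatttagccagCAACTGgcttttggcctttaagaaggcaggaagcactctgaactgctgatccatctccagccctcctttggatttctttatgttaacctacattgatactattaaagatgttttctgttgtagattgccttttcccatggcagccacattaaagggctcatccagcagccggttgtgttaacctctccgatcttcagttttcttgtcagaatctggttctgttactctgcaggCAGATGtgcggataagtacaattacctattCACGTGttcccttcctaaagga

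The windows of Fgf2 and Fgf18 held no E-box, that of Fgf7 held 1, that of Fgf10 2, that of Fgfr2 3 and the Fgfr3 window shown 1. An E-box was present in 72.3% of 32851 promoter windows of the same length, so its presence sets none of these genes apart. A GC box, present in 35.7% of all windows, occurred once in Fgf2, Fgf18 and Fgf10, 4 times in Fgfr3 and not in Fgf7 or Fgfr2. The E-box and the GC boxes did not overlap in the windows shown; in Fgfr3 a pair of them lay end to end. Guanine and cytosine made up 78.7% of the Fgf18 window and 43.7% of the Fgfr2 window, against a median of 52.7% over all windows. No window of these genes held a TATA box (TATAAA; 13.6% of all windows) or an AP-1 site (TGANTCA; 7.81%). None held a match to the palindromic response elements searched for estrogen receptors (0.0700% of all windows) and for the progesterone and glucocorticoid receptors (0.475%). At such shares a match is rarely found in any window, and its absence says only that these letters were not there.

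The IF group was compared with the control group to see what RU486 changed. Among the ligands Fgf2, a broad mitogen for stroma and endothelium, and Fgf18 rose, and Fgf7, a stromal ligand of the epithelial FGFR2, fell. Among the receptors Fgfr1 and Fgfr3 rose. Thus 5 of the 10 genes passed the test (adjusted p under 0.05 in limma over all 18706 genes), 4 higher and 1 lower, where 21.9% of all genes passed, 13.4% higher and 8.53% lower. The groups did not overlap for the same 5 genes, against 12.8% of all genes. By the rule of a fold change of at least 2 with an unadjusted p under 0.05, 4 of the 10 passed (Fgf2, Fgf7, Fgf18 and Fgfr3), against 4.03% of all genes. The median log2 fold change was 0.30 over the 10 genes and 0.02 over all genes tested. The 10 genes and the pathway lists below were chosen with earlier results of these data known, so such shares are description and not an independent test. With libraries rescaled by median ratios, the all-gene calls changed from 2509 higher and 1595 lower to 2123 higher and 2083 lower, and the calls of the 10 genes did not change.

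Fgf2 was 5.83, 5.05, 5.57, 5.87 and 8.75 TPM in the control libraries and 15.4, 17.6, 9.32, 16.6 and 27.9 TPM in the IF libraries. Every IF library was above every control library, the nearest being IF replicate 3 and control replicate 5. The change was 1.41 ± 0.30 on the log2 scale of TPM + 0.1 (SE; 2.66-fold; adjusted p = 0.00222). Its share of the summed TPM of the 6 ligands went from 27.7% ± 5.87 (SD, n = 5) to 52.5% ± 9.26. The gene Nudt6, which shares 5125 bases of the locus with Fgf2, averaged 5.24 TPM over the control and 3.58 TPM over the IF libraries. The study's methods name a stranded library kit but do not state whether counting used strand. Where it did not, reads from the overlap cannot be told apart.

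Fgf18, a ligand of FGFR3 among others, was 0.767, 0.817, 0.803, 0.821 and 0.514 TPM in the control libraries and 2.04, 1.21, 1.09, 1.79 and 2.04 TPM in the IF libraries. The groups did not overlap, though the gene had the lowest mean of the 6 ligands in both. It rose by 1.01 ± 0.20 on the log2 scale (2.01-fold; adjusted p = 0.00145).

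Fgf7, also called keratinocyte growth factor, was 3.92, 3.65, 3.89, 4.30 and 4.35 TPM in the control libraries and 2.24, 2.48, 1.18, 3.03 and 1.38 TPM in the IF libraries. All IF libraries lay below all control libraries. Fgf7 fell by 1.01 on the log2 scale (SE 0.21; 0.497 of the control level; adjusted p = 0.00179). Fam227b, whose gene body contains Fgf7, stayed below 0.477 TPM in every library.

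The remaining ligands did not pass the test. Fgf10, a stromal relative of Fgf7 that binds the same receptor form, was 3.61, 8.82, 3.88, 4.28 and 3.74 TPM in the control libraries and 3.19, 2.78, 4.13, 2.54 and 0.834 TPM in the IF libraries. Control replicate 2 stood apart at the top and IF replicate 5 at the bottom, and the groups overlapped through IF replicate 3. The difference was -0.90 on the log2 scale (95% interval -1.73 to -0.07; adjusted p = 0.114), and -0.66 without control replicate 2 (adjusted p = 0.234). That control library also held 583.7 TPM of the adipose markers Adipoq, Plin1, Cfd, Fabp4 and Lep, where the other control libraries held between 3.43 and 32.3 TPM. IF replicate 5, with the lowest Fgf10 of all libraries, held the highest adipose sum of its group too, 134.5 TPM, and so did PBMC-hCG replicate 1 (15.3 TPM), with the lowest Fgf10 of its group. The PBMC group went the other way. Its highest adipose sum, 48.2 TPM in replicate 4, stood beside an Fgf10 of 4.69 TPM. PBMC replicate 5, with the lowest Fgf10 of that group (1.45 TPM), held 5.47 TPM. The part of adipose tissue in the Fgf10 values was not tested. Fgf9 averaged 2.97 ± 1.31 TPM in the control and 3.70 ± 0.482 TPM in the IF group (log2 difference 0.40, 95% interval -0.07 to 0.87; adjusted p = 0.221). Without control replicate 2 the difference was 0.60 and passed (adjusted p = 0.0305). Fgf1, which binds all 4 receptors, averaged 3.82 ± 0.248 TPM and 4.74 ± 1.68 TPM (log2 difference 0.21, 95% interval -0.38 to 0.80; adjusted p = 0.652), its IF libraries spreading from 1.96 TPM in replicate 3 to 5.97 TPM in replicate 4.

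Fgfr1, the main receptor of mesenchymal cells, was 32.9, 45.5, 38.6, 35.1 and 40.7 TPM in the control libraries and 54.4, 50.003, 60.9, 53.3 and 70.4 TPM in the IF libraries. The lowest IF library was above the highest control library. Fgfr1 rose by 0.58 ± 0.10 on the log2 scale (1.49-fold; adjusted p = 0.000245). Fgfr3 was 2.82, 3.26, 3.32, 2.98 and 4.27 TPM in the control libraries and 6.51, 5.45, 7.40, 6.74 and 9.40 TPM in the IF libraries, again with no overlap. It rose by 1.06 ± 0.18 (2.09-fold; adjusted p = 0.000417), the larger fold of the pair at a much lower level.

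Fgfr2 overlapped between the groups, at 41.2 to 48.6 TPM in the control and 37.0 to 57.8 TPM in the IF libraries, with medians of 43.1 and 46.9 TPM (log2 difference 0.11, 95% interval -0.13 to 0.34; adjusted p = 0.548). Fgfr4, the receptor best known from liver, averaged 1.16 ± 0.401 TPM in the control and 0.860 ± 0.486 TPM in the IF group (log2 difference -0.47, 95% interval -1.04 to 0.10; adjusted p = 0.242). It passed only without IF replicate 3, whose 1.67 TPM was the highest IF value (-0.72; adjusted p = 0.0376).

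**Figure D2:**
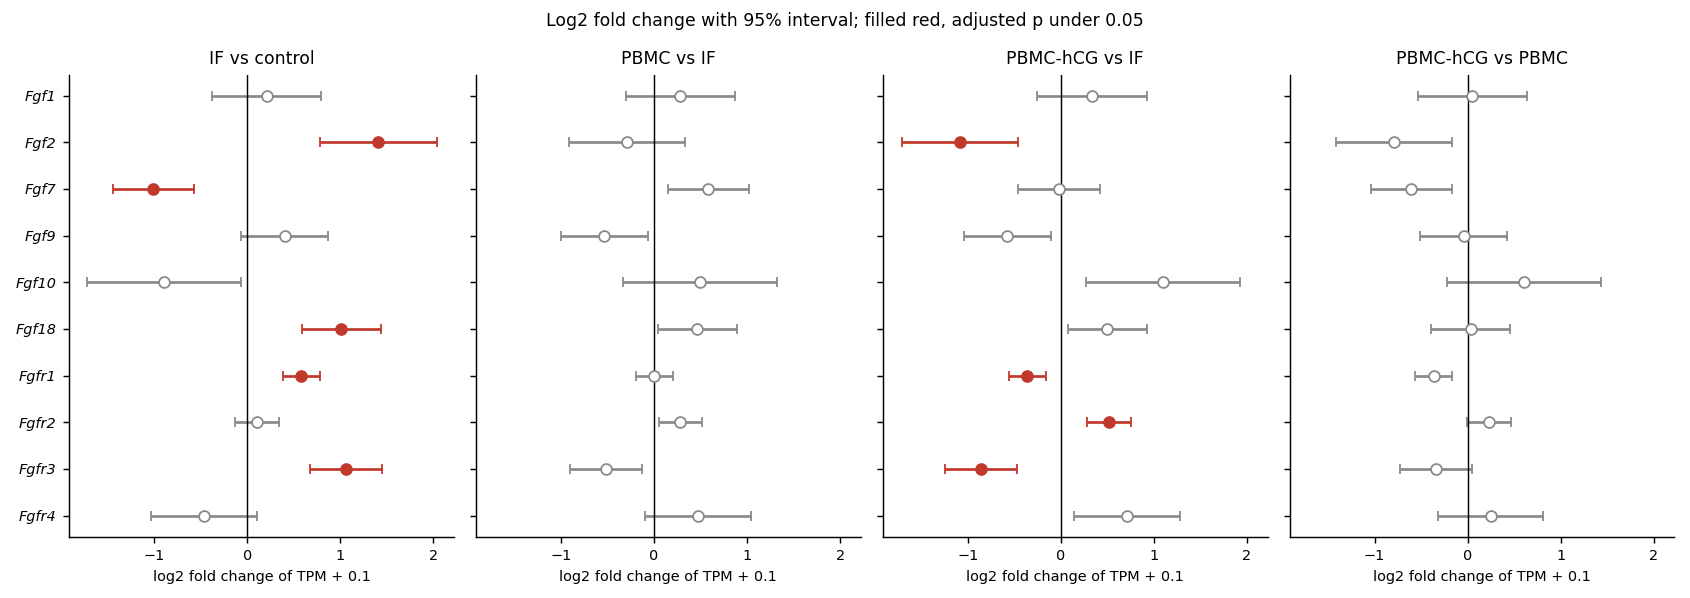
Log2 fold change of TPM + 0.1 (x axes) of the 10 genes (y axis) in 4 comparisons, with 95% intervals from limma; filled red points passed at adjusted p under 0.05. The 5 filled points of IF vs control are Fgf2, Fgf7, Fgf18, Fgfr1 and Fgfr3, the 4 of PBMC-hCG vs IF are Fgf2, Fgfr1, Fgfr2 and Fgfr3, and the comparisons of PBMC with IF and of PBMC-hCG with PBMC have none.

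The PBMC group was compared with the IF group for an effect of cells cultured without hCG. None of the 10 genes passed, and the background was 0%, as limma called 0 of the 18706 genes. At an unadjusted p under 0.05, 5 of the 10 genes (Fgf7, Fgf9, Fgf18, Fgfr2 and Fgfr3) and 1271 of all genes were below the threshold. The rule of fold change and unadjusted p took 0.438% of all genes and none of the 10. Fgf7 was 3.39, 3.08, 2.66, 2.87 and 2.86 TPM in the PBMC libraries, all of them above every IF library but IF replicate 4, which 2 of them exceeded (log2 difference 0.58, 95% interval 0.15 to 1.02; adjusted p = 0.673). Fgfr1 was nearly level, at 57.8 ± 8.07 TPM in the IF and 57.7 ± 4.42 TPM in the PBMC group (log2 difference 0.00, 95% interval -0.20 to 0.20).

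The PBMC-hCG group was compared with the IF group for an effect of cells cultured with hCG. Here Fgfr2 rose and Fgf2, Fgfr1 and Fgfr3 fell, so that 4 of the 10 genes passed, 1 higher and 3 lower, against 13.6% of all genes, 7.61% higher and 5.99% lower. The median log2 fold change was 0.16 over the 10 genes and 0.05 over all genes. Under median-ratio scaling the all-gene calls turned from 1423 higher and 1121 lower to 1181 higher and 1467 lower. By the rule of fold change and unadjusted p, 2 of the 10 passed (Fgf2 and Fgf10), against 2.31% of all genes. All 4 calls depended on the same 7 libraries, left out 1 at a time, and were kept with any other library left out. Each was lost without IF replicate 2, 4 or 5 or without PBMC-hCG replicate 2, 3, 4 or 5 (adjusted p between 0.0534 and 0.113), when between 0 and 34 of all genes were called. Those of Fgf2 and Fgfr1 were also lost when genes at 0 in some libraries were kept in the fit (adjusted p = 0.0552 and 0.0503). No sign changed, and the 4 log2 changes stayed between -1.30 and -0.89 for Fgf2, -0.41 and -0.29 for Fgfr1, 0.43 and 0.59 for Fgfr2, and -1.004 and -0.73 for Fgfr3 over every alternative tried. The IF libraries are shared with the comparison of IF and control, so a chance deviation of the IF group moves both in opposite directions.

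Fgfr2 was 61.3, 72.0, 70.7, 65.9 and 68.9 TPM in the PBMC-hCG libraries, all above the highest IF library at 57.8 TPM. Its change was 0.52 ± 0.11 on the log2 scale (1.43-fold; adjusted p = 0.0258). Fgfr1 was 51.3, 42.9, 43.3, 44.7 and 41.8 TPM, with only replicate 1 within the range of the IF group (log2 change -0.36 ± 0.10; adjusted p = 0.0309). Fgfr3 was 5.73, 2.98, 2.98, 3.97 and 3.95 TPM, and again replicate 1 alone reached the lowest IF library (-0.86 ± 0.18; 0.551 of the IF level; adjusted p = 0.0258).

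Fgf2 was 14.2 TPM in PBMC-hCG replicate 1 and 7.38, 6.16, 6.03 and 6.86 TPM in the others, so that only replicate 1 overlapped the IF range. It fell by 1.08 on the log2 scale (SE 0.30; 0.472 of the IF level; adjusted p = 0.0334), and by 1.30 without that replicate (adjusted p = 0.0104). Fgf10 was 2.96 TPM in the same replicate 1 and 6.92, 6.74, 5.71 and 5.08 TPM in the others, which lay above all IF libraries (log2 difference 1.10, 95% interval 0.27 to 1.93; adjusted p = 0.0648). Without replicate 1 it was 1.30 and passed (adjusted p = 0.0326). Fgf9 in the PBMC-hCG group, at 1.90 to 2.95 TPM, lay below every IF library (3.09 to 4.09 TPM) without passing (log2 difference -0.58, 95% interval -1.04 to -0.11; adjusted p = 0.0815). It passed under quantile normalization (adjusted p = 0.0436), with only these 2 groups fitted (0.0438) and without control replicate 2 (0.0375).

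The other members did not pass. Fgf7 averaged 2.06 ± 0.773 TPM in the IF and 1.96 ± 0.484 TPM in the PBMC-hCG group (log2 difference -0.02, 95% interval -0.46 to 0.42). Fgf18 averaged 1.63 ± 0.456 and 2.30 ± 0.324 TPM (0.50, 95% interval 0.08 to 0.92; adjusted p = 0.0918). Fgf1 averaged 4.74 ± 1.68 and 5.89 ± 2.03 TPM (0.34, 95% interval -0.25 to 0.92), and Fgfr4 averaged 0.860 ± 0.486 and 1.37 ± 0.313 TPM (0.71, 95% interval 0.14 to 1.28; adjusted p = 0.0768), which passed without IF replicate 3 (0.97; adjusted p = 0.0127).

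Between PBMC-hCG and PBMC, which differ by the hCG added to the culture, none of the 10 genes passed and 0.0107% of all genes did, 2 of 18706. The comparison does not separate hCG acting on the cells from hCG carried with them into the uterus. At an unadjusted p under 0.05 there were 3 of the 10 genes, Fgf2, Fgf7 and Fgfr1, and 3024 of all genes. Fgfr1 came nearest, with every PBMC-hCG library (41.8 to 51.3 TPM) below every PBMC library (51.6 to 62.9 TPM) by a margin of under 1 TPM at the edge (log2 difference -0.36, 95% interval -0.56 to -0.16; adjusted p = 0.264). Fgf2 averaged 14.4 ± 6.48 TPM in the PBMC and 8.11 ± 3.42 TPM in the PBMC-hCG group (-0.79, 95% interval -1.42 to -0.17; adjusted p = 0.283).

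Against the control group, the PBMC group had 5 of the 10 genes called, all higher (background 19.5%): Fgf2 (1.12 ± 0.30), Fgf18 (1.47 ± 0.20), Fgfr1 (0.58 ± 0.10), Fgfr2 (0.39 ± 0.11) and Fgfr3 (0.54 ± 0.18), with adjusted p from 5.25e-05 for Fgf18 to 0.0457 for Fgfr3. The Fgfr3 call was lost in 15 of 29 alternatives, 11 of them with 1 library left out, and without PBMC replicate 4 a total of 3 calls remained. In the PBMC-hCG group 3 of the 10 were called (background 31.8%): Fgf18 (1.51 ± 0.20; adjusted p = 3.23e-05) and Fgfr2 (0.62 ± 0.11; adjusted p = 0.000447) higher, and Fgf7 (-1.03 ± 0.21; adjusted p = 0.00117) lower. Fgf2 in this group, 0.33 ± 0.30 from control (95% interval -0.30 to 0.95; adjusted p = 0.428), and Fgfr3, 0.20 ± 0.18 (95% interval -0.19 to 0.59; adjusted p = 0.431), did not pass. All these comparisons share the 5 control libraries. Under median-ratio scaling the all-gene calls went from 2400 higher and 1253 lower to 1856 and 1676 for the PBMC group, and from 3772 higher and 2169 lower to 2797 and 2966 for the PBMC-hCG group. Across the 3 RU486 groups, Fgf18 was thus above and, in the IF and PBMC-hCG groups, Fgf7 below the control by the test; Fgf7 of the PBMC group lay below every control library too but did not pass (-0.43, 95% interval -0.86 to 0.01; adjusted p = 0.168).

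The balance between the 2 abundant receptors can be read within a library, where scaling between libraries plays no part. Fgfr2 exceeded Fgfr1 in 4 of 5 control, 1 of 5 IF, 2 of 5 PBMC and 5 of 5 PBMC-hCG libraries. Fgfr2 made up 54.1%, 44.9%, 51.4%, 55.3% and 47.5% of the summed receptor TPM in the control libraries, 48.5%, 45.6%, 44.0%, 41.3% and 31.5% in the IF libraries, 52.3%, 46.6%, 46.9%, 52.7% and 39.5% in the PBMC libraries and 51.1%, 60.4%, 60.0%, 56.7% and 59.4% in the PBMC-hCG libraries. Every PBMC-hCG library was above every IF library, and both ranges overlapped that of the control. The share of Fgfr3 averaged 3.82% ± 0.606 in the control, 6.24% ± 1.08 in the IF, 4.05% ± 0.855 in the PBMC and 3.32% ± 0.929 in the PBMC-hCG group. The 4 receptors summed to 87.1 ± 4.51 TPM in the control group, 113.7 ± 9.96 in the IF, 121.9 ± 6.74 in the PBMC and 117.9 ± 1.72 in the PBMC-hCG group, with every RU486 library above every control library. These shares are given as description, with no test.

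**Figure D3:**
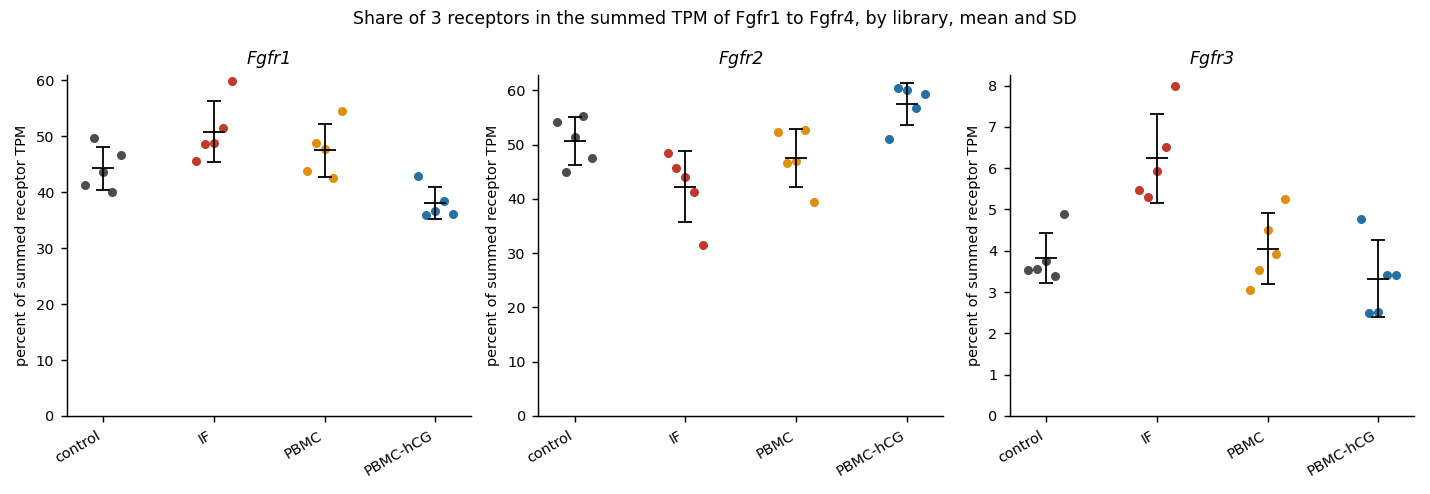
Share of Fgfr1, Fgfr2 and Fgfr3 in the summed TPM of the 4 receptors (y axes, percent, from 0) in the 4 groups (x axes); points are libraries, bars the mean and SD of 5. Fgfr2 shares of the PBMC-hCG group lie between 51.1% and 60.4% and those of the IF group between 31.5% and 48.5%.

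Within the RU486 groups 1 library of each carried several members to the edge of the group. These libraries, IF replicate 5, PBMC replicate 5 and PBMC-hCG replicate 1, were picked as those with the highest Fgf2 of their groups. They also held the highest Fgfr1 and Fgfr3 and the lowest Fgf10 and Fgfr2. In those libraries Fgf2 was 27.9, 25.0 and 14.2 TPM and Fgf10 was 0.834, 1.45 and 2.96 TPM. In the control group, replicate 2 had both the lowest Fgf2 (5.05 TPM) and the highest Fgf10 (8.82 TPM). The highest control Fgf2, in replicate 5 (8.75 TPM), stood beside an Fgf10 of 3.74 TPM, close to the lowest control value of 3.61 TPM in replicate 1. The 3 libraries were at an edge of their groups for many genes: 10.6% of all 18706 genes had their highest and 14.4% their lowest value in all 3. Of the 9 members other than Fgf2, 2 were highest and 2 lowest in all 3 (22.2% each). Hoxa10, a homeobox factor of the receptive uterus, was at its lowest there (96.4, 103.4 and 165.2 TPM) and Hand2 at its highest (123.0, 95.6 and 95.1 TPM). The summed stromal markers were at their lowest in the same 3 libraries, 6521 TPM of up to 7713 in the IF, 7221 of up to 8287 in the PBMC and 7732 of up to 8512 in the PBMC-hCG group, while the summed myometrial markers were highest there in the IF (7716 TPM) and PBMC-hCG (6339 TPM) groups and not in the PBMC group. The part of tissue makeup in these values was not tested.

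**Figure D4:**
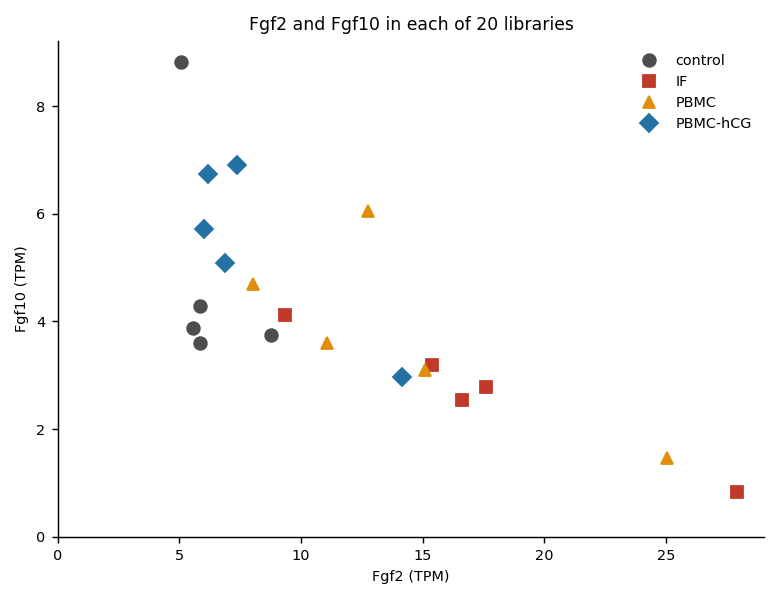
Fgf10 (y axis, TPM) against Fgf2 (x axis, TPM) in each of the 20 libraries, marked by group. In the IF, PBMC and PBMC-hCG groups the library with the highest Fgf2 (27.9, 25.0 and 14.2 TPM) has the lowest Fgf10 (0.834, 1.45 and 2.96 TPM).

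The genes whose log2 levels ran most like a member's over the 20 libraries, among 15770 genes with a mean of at least 1 TPM, are given by Pearson's r as a description; the points share the 4 groups, so group differences enter each r. For Fgf2 they were Rhoc (0.98), a small GTPase of the cytoskeleton, and the transporter gene Slco5a1 (0.97). For Fgf10 they were Hs1bp3 (0.95) and Acp6 (0.95), for Fgf18 Sri (0.91) and the membrane-anchored matrix metalloproteinase Mmp14 (0.91), and for Fgf7 Shmt1 (0.90) and Ndufs3 (0.90). For Fgfr3 they were Plau, the urokinase plasminogen activator (0.93), and Gm26799 (0.92), for Fgfr2 Zfp229 (0.96) and Npc1, a lysosomal cholesterol transporter (0.96), and for Fgfr1 Usp13 (0.92) and Tmbim1 (0.92). The values were lower for Fgf9 (Gm36753, 0.86, and Arhgef16, 0.82), Fgfr4 (Cfap20, 0.83, and Fam117a, 0.82) and Fgf1, whose nearest gene was Lrrn4 (0.74), a marker of mesothelium, followed by Myrf (0.71).

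The rest of the pathway was described by 84 genes in 8 lists, of which 66 could be tested. In IF against control 20 of these rose and 3 fell, with a median log2 fold change of 0.17. For all genes the median was 0.02 and the called share 21.9%, 13.4% higher and 8.53% lower. In PBMC-hCG against IF 5 rose and 7 fell (median -0.09, against 0.05 and 13.6% for all genes, 7.61% higher and 5.99% lower). None passed in PBMC against IF or in PBMC-hCG against PBMC.

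Before the receptor, 1 of 13 tested coreceptors and carriers passed in IF against control. It was Flrt1, a transmembrane protein that binds FGF receptors, at 0.956 to 1.44 TPM in the control and 4.11 to 8.51 TPM in the IF libraries (2.03 ± 0.26 on the log2 scale; adjusted p = 2.17e-05), and it kept its call in all 29 alternatives. The syndecan Sdc1, a heparan sulfate proteoglycan of epithelium, fell in PBMC-hCG against IF (-0.83 ± 0.21; adjusted p = 0.0287), from 134.9 ± 39.7 to 75.1 ± 17.9 TPM. Of 11 enzymes that build or trim heparan sulfate, 4 rose in IF against control: Extl3, which starts the chain (0.55 ± 0.06), the 6-O-sulfotransferase Hs6st1 (0.51 ± 0.10), and the N-sulfotransferases Ndst1 (0.37 ± 0.11) and Ndst2 (0.24 ± 0.06), each without overlap of the groups. Among all genes 13.4% rose, and 12.8% had no overlap in either direction. Hs6st1 fell in PBMC-hCG against IF (-0.33 ± 0.10; adjusted p = 0.0433). Among the intracellular FGF homologs, which are not secreted and bind sodium channels, Fgf11 rose in PBMC-hCG against IF (0.44 ± 0.11; adjusted p = 0.0292).

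Of 12 adaptors, 4 rose and 1 fell in IF against control, where 13.4% of all genes rose and 8.53% fell. The docking protein gene Gab2 (0.65 ± 0.09), the adaptor gene Shc1 (0.36 ± 0.03) and the RAS activators Sos1 (0.27 ± 0.08) and Sos2 (0.27 ± 0.07) were higher and Frs2, the adaptor that FGF receptors use directly, was lower (-0.25 ± 0.07; adjusted p = 0.0173). In PBMC-hCG against IF, Gab1 (0.50 ± 0.12) and Frs2 (0.23 ± 0.07; adjusted p = 0.0459) rose. Of 9 RAS-ERK genes, the kinases Map2k1 (0.47 ± 0.12) and Braf (0.23 ± 0.08) rose in IF against control, the latter at an adjusted p of 0.0453 and with the call lost in 16 of 29 alternatives. In PBMC-hCG against IF, Map2k1 (-0.42 ± 0.12) fell and Braf (0.32 ± 0.08) rose.

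The feedback inhibitors held the highest count of called genes among the 8 pathway lists in IF against control. Of 11 tested, 8 rose and none fell, with a median of 0.49, where 13.4% of all genes rose and 8.53% fell. All 11 estimates were above 0, as were 9982 of all 18706. Examples are Dusp5 (0.74 ± 0.24), a nuclear ERK phosphatase, Il17rd, also called Sef, an inhibitor at the FGF receptor (0.58 ± 0.15), and Sprouty Spry2 (0.55 ± 0.12), which was 23.2 to 30.8 TPM in the control and 34.0 to 49.1 TPM in the IF libraries. The Dusp5 call was lost in 10 of 29 alternatives. In PBMC-hCG against IF, Spry4 was 9.29, 12.4, 6.50, 9.31 and 13.5 TPM in the IF and 6.36, 4.90, 3.51, 5.15 and 4.62 TPM in the PBMC-hCG libraries, with no overlap. Spry4 (-1.02 ± 0.25) and the ERK phosphatase Dusp6 (-0.71 ± 0.17) fell and Il17rd (0.58 ± 0.15) rose, all 3 at an adjusted p of 0.0287. Il17rd thus rose in both comparisons, with means of 8.51 TPM in the control, 12.9 TPM in the IF and 19.2 TPM in the PBMC-hCG group, while Spry4 and Dusp6 were lower in the PBMC-hCG than in the IF group.

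Among 7 tested transcription factors and cell cycle genes that answer ERK signaling, Fos rose (1.71 ± 0.55; adjusted p = 0.0325) and Myc (-1.04 ± 0.09; adjusted p = 5.14e-07) and Ccnd1 (-0.97 ± 0.29; adjusted p = 0.0221) fell in IF against control. In that comparison 13.4% of all genes rose and 8.53% fell. Myc was 96.0 to 127.7 TPM in the control and 50.1 to 60.0 TPM in the IF libraries. Fos was spread widely within groups, from 10.7 to 74.3 TPM in the control and from 68.1 to 161.2 TPM in the IF libraries, and lost its call in 7 of 29 alternatives, and Ccnd1 lost its call in 5. Etv4, an ETS factor often read as a target of FGF signaling, fell in PBMC-hCG against IF (-0.87 ± 0.28; adjusted p = 0.0451), from 1.18 ± 0.464 to 0.546 ± 0.0682 TPM, where 5.99% of all genes fell. As with the FGF genes themselves, each of the pathway calls named for PBMC-hCG against IF was lost without IF replicate 2, 4 or 5 or without PBMC-hCG replicate 2, 3, 4 or 5. Those of Frs2 and Etv4 were lost in 15 of 29 alternatives each and that of Hs6st1 in 13.

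**Figure D5:**
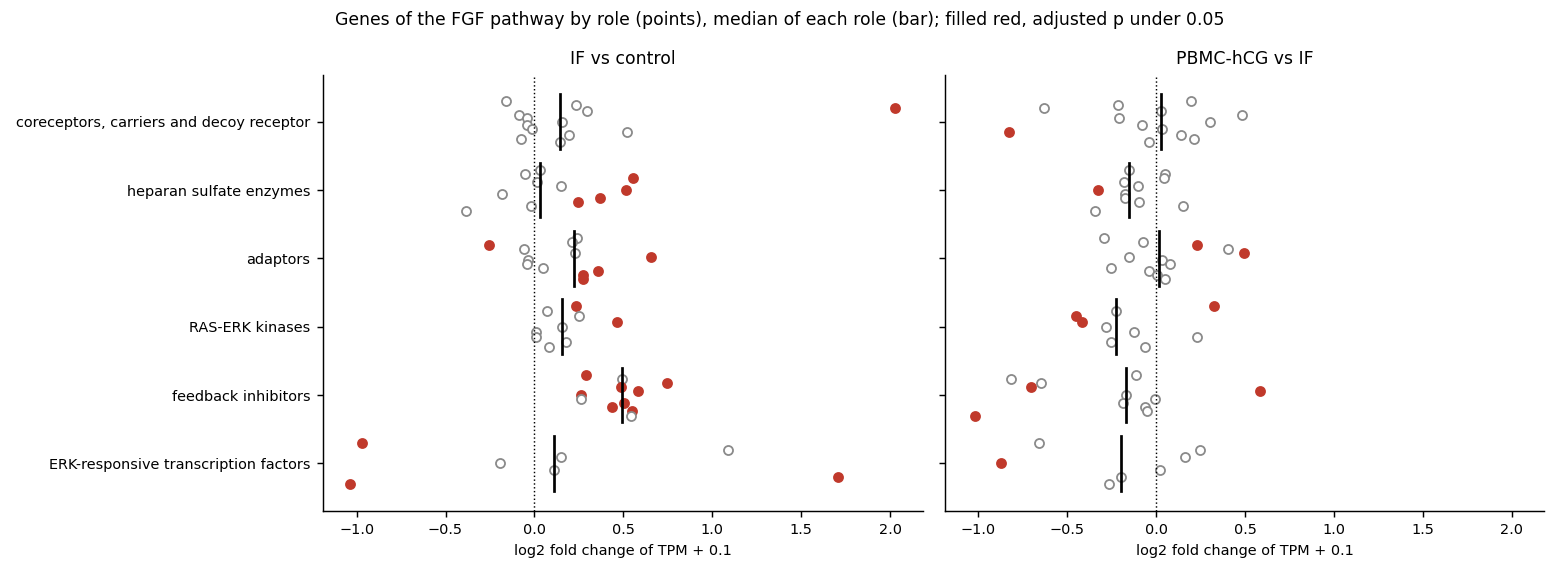
Log2 fold change of TPM + 0.1 (x axes) of pathway genes grouped by role (y axis) in IF vs control and in PBMC-hCG vs IF; each point is a gene, filled red where adjusted p was under 0.05, and the black bar is the median of the role. Feedback inhibitors lie to the right in IF vs control (median 0.49, 8 of 11 filled).

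The progesterone receptor gene Pgr, target of the drug, was 52.1, 38.0, 42.3, 53.1 and 44.1 TPM in the control and 135.7, 141.1, 138.0, 168.2 and 167.0 TPM in the IF libraries, and rose 3.27-fold (1.71 ± 0.14; adjusted p = 1.44e-07). The estrogen receptor gene Esr1 (0.51 ± 0.06) rose with it and Hoxa10 (-0.92 ± 0.13) fell. Hand2, the factor that holds stromal FGF ligands down, was 127.7 ± 41.4 TPM in the control and 103.7 ± 15.9 TPM in the IF group and did not pass (-0.26, SE 0.15; adjusted p = 0.252). Against the control it was lower in the PBMC (-0.57 ± 0.15; adjusted p = 0.0134) and PBMC-hCG (-0.52 ± 0.15; adjusted p = 0.0147) groups, at 83.4 ± 8.40 and 85.8 ± 5.70 TPM. In PBMC-hCG against IF, Hoxa10 (0.42 ± 0.13; adjusted p = 0.0471) and the stromal factor Nr2f2 (0.47 ± 0.14; adjusted p = 0.0407) rose, 2 of 11 tested genes of this axis, against 7.61% of all genes. The Hoxa10 call was lost in 17 of 29 alternatives and that of Nr2f2 in 8, the same 7 libraries among them.

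Markers of cell types moved with the same comparisons. Of all genes, 13.4% rose and 8.53% fell in IF against control, and 7.61% rose and 5.99% fell in PBMC-hCG against IF. In IF against control 4 of 8 stromal markers (Pdgfrb, Dcn, Lum and Col6a1) and 5 of 6 endothelial markers rose and none of either fell, and the stromal sum went from 4357 to 5361 TPM in the control to 6521 to 7713 TPM in the IF libraries, with no overlap. Of 9 epithelial markers 5 rose and 2 (Cldn3 and Foxa2) fell, and their sum overlapped, at 767 to 1402 TPM in the control and 1017 to 1353 TPM in the IF libraries. Of 7 myometrial markers 1 fell, Acta2, of 7 tested leukocyte markers 3 rose, and of 3 oviduct markers 1 fell, Ovgp1. In PBMC-hCG against IF 3 of 4 mesothelial markers (Upk3b, Msln and Lrrn4) and 2 of 8 stromal markers (Pdgfra and Nr2f2) rose, and the stromal sum was 6521 to 7713 TPM in the IF and 7732 to 8512 TPM in the PBMC-hCG libraries. In the same comparison Krt8 (0.45; adjusted p = 0.0392), 1 of 9 epithelial markers, and Emcn (0.29; adjusted p = 0.0287), 1 of 6 endothelial markers, rose. The hemoglobin gene Hbb-bs fell (-1.04; adjusted p = 0.0493), and Hba-a1 (-1.04; adjusted p = 0.0555) and Hbb-bt (-1.08; adjusted p = 0.0540) did not pass. Of 5 ovarian markers Cyp19a1 and Zp3 were listed at 0 in every library, and of the 3 tested Gdf9, an oocyte growth factor, rose in PBMC-hCG against IF, from 1.25 ± 0.247 to 2.30 ± 0.483 TPM (0.83; adjusted p = 0.0258), and against control (0.79; adjusted p = 0.00317). In PBMC-hCG against control, where 31.8% of all genes were called, 5 of 7 myometrial markers fell (median log2 fold change -0.53) and none rose. There all 6 endothelial markers rose, and of 8 stromal markers 4 rose and 1 fell. In PBMC against control, where 19.5% of all genes were called, none of the 7 myometrial markers passed. There 5 of 6 endothelial markers rose, and of 8 stromal markers 5 rose and 1 fell. The part of these cell types in the FGF values was not tested.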

How the data were processed

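Poly(A) RNA of uterine tissue was sequenced in 4 groups of 5 libraries, from 1 horn of a mouse by the study's methods. The authors trimmed reads with Trimmomatic, aligned them to mm10 with HISAT2 and quantified genes with StringTie, and the table they deposited holds TPM; versions are not given in the sources used here. Columns summed to between 999989 and 999999 TPM, so depth is unknown and counting error cannot be given. The exact test on counts named in the study's methods needs counts, which were not used here. limma 3.58.1 in R 4.3.3 (1 fit of 4 groups, variance trend) was therefore applied to log2(TPM + 0.1) of the 18706 genes above 0 in all 20 libraries, with Benjamini-Hochberg adjustment within each comparison and a threshold of 0.05. The pseudocount understates changes of low genes. Fold changes, SE and 95% intervals are on that scale. The labels do not say that replicates are separate mice, so p-values measure only the spread between these libraries. In simulated data with 200 changed genes for IF vs control, 186 were recovered and 11 false calls made. The planted changes were larger than every called change of the 10 genes in IF vs control. Noise was drawn independently for each gene, so these figures do not carry over to the calls reported here. Genes were named by rule: all 10 members; up to 3 called genes with the largest change per pathway role in IF vs control and in PBMC-hCG vs IF, with a mean of at least 1 TPM in 1 group; the 2 genes most like each member over the 20 libraries; and Hand2 and Pgr. A gene that this rule names is not reported here. Ndst2, Sos2, Frs2 in IF vs control, and marker genes were added after their values were seen. The members and lists were chosen with earlier results of these data known. Promoters are from RefSeq (GRCm38.p6). Replicate numbers were not taken as pairs, though replicate 5 of the control, IF and PBMC groups deviated together (closing section). No 2 columns were identical. Alternatives were other pseudocounts, filters, scalings, fits and call rules, a replicate block, and leaving out each library; leaving out libraries for the receptor shares was added after the data were seen.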

Additional observations from a re-analysis of the deposited data

Results flagged for a closer look

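In 4 of the 40 combinations of a gene and a group of 5, the highest or lowest library lay far from the other 4, by Dixon's test at the 95% level, where chance gives about 1 in 20, that is 2. Fgf2 was 14.2 TPM in PBMC-hCG replicate 1, against 6.03 to 7.38 TPM in the other libraries of the group. Fgf2 was also 8.75 TPM in control replicate 5, against 5.05 to 5.87 TPM. Fgf10 was 8.82 TPM in control replicate 2, against 3.61 to 4.28 TPM, in the library that also had the highest adipose marker sum of all (583.7 TPM), while IF replicate 5, with the highest sum of its group (134.5 TPM), had the lowest Fgf10 of all (0.834 TPM). Fgf18 was 0.514 TPM in control replicate 5, against 0.767 to 0.821 TPM.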

How the results depend on the processing

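The 5 calls of IF vs control kept their direction and their side of the threshold in all 29 alternatives that kept the adjusted p as the rule. By fold change of at least 2 and unadjusted p, Fgfr1 (1.49-fold) did not pass. Counts of called genes moved, the main changes being as follows. By fold change of at least 2 and unadjusted p, the count of FGF genes was 4 in IF vs control and 2 each in PBMC-hCG vs IF, PBMC vs control and PBMC-hCG vs control. For the pathway lists it was 3 in IF vs control, 1 in PBMC-hCG vs IF, 4 in PBMC vs control and 7 in PBMC-hCG vs control. With no zero filter, 2 FGF genes were called in PBMC-hCG vs IF. With only the compared groups fitted, pathway calls were 14 in IF vs control and 12 in PBMC vs control. With 1 library left out, FGF genes called ranged from 5 to 6 in IF vs control, 0 to 6 in PBMC-hCG vs IF, 3 to 5 in PBMC vs control and 3 to 4 in PBMC-hCG vs control. Pathway genes called ranged from 16 to 25 in IF vs control, 15 to 22 in PBMC vs control and 16 to 25 in PBMC-hCG vs control. In PBMC-hCG vs IF pathway genes called ranged from 0 to 21 (20 without control replicate 2, 21 without PBMC-hCG replicate 1, and 0 without any of the 7 libraries that ended the FGF calls). The cause was not tested.

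Signs reversed only for differences that were not called. Without 1 library, Fgfr1 in PBMC vs IF ranged from -0.0445 to 0.0785, Fgf7 in PBMC-hCG vs IF from -0.19 to 0.13, Fgf1, Fgf9 and Fgf18 in PBMC-hCG vs PBMC from -0.0853 to 0.20, -0.12 to 0.0458 and -0.0671 to 0.12, Fgf9 and Fgfr4 in PBMC vs control from -0.28 to 0.0645 and -0.12 to 0.17, and Fgf9 in PBMC-hCG vs control from -0.32 to 0.0244. Median-ratio scaling gave -0.0141 for Fgfr1 in PBMC vs IF and -0.0460 for Fgfr4 in PBMC vs control. Quantile normalization gave -0.00558 for Fgf1 and -0.0274 for Fgf18 in PBMC-hCG vs PBMC and -0.0651 for Fgfr4 in PBMC vs control, where a pseudocount of 1 gave -0.00827.

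Same-numbered libraries deviated together in 8 of 30 pairs of libraries (r above 0.1; range -0.25 to 0.46), and the numbers were not taken as pairs. The highest values all belonged to replicate 5: 0.46 for IF and PBMC, 0.40 for control and IF, and 0.27 for control and PBMC. Replicate 5 of the PBMC-hCG group did not share this (-0.06 with control, -0.09 with IF and -0.08 with PBMC). The cause of the likeness among these replicate 5 libraries was not tested. With the replicate block, 5 FGF genes were called in IF vs control, 5 in PBMC-hCG vs IF (Fgf10 added, adjusted p = 0.0415), 5 in PBMC vs control and 3 in PBMC-hCG vs control, and Frs2 in PBMC-hCG vs IF was lost (adjusted p = 0.0543). Depth is unknown, so the low levels of Fgf18 and Fgfr4 have no counting error to set beside them.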
